A study of Eutrema salsugineum with 2 samples.

Results

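In rosettes of the salt-tolerant crucifer Eutrema salsugineum, 17888 genes had reads, and 4 of them are described here whose best matches in Arabidopsis thaliana belong to gene families of pathogen sensing or defence signalling. They are the receptor-like protein gene RLP35 (Thhalv10000632m.g), the cysteine-rich receptor-like kinase gene CRK11 (Thhalv10028496m.g), the intracellular receptor gene WRKY16 (Thhalv10001165m.g) and the cyclic nucleotide-gated channel gene CNGC3 (Thhalv10001345m.g). All 4 were chosen by identifier, with their read numbers already known, so the contrast between accessions at these loci is given as a description and without a test. The names are those of the best A. thaliana hit and carry the roles known in that species.

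Plants recognise microbes both outside and inside the cell. Receptors at the cell surface, among them leucine-rich receptor-like proteins without a kinase domain and receptor-like kinases, bind molecules released outside the cell. Intracellular receptors with a nucleotide-binding site and leucine-rich repeats (NLR receptors) respond to effectors that pathogens deliver into the cytoplasm. Calcium entry through plasma membrane channels, mitogen-activated protein kinases and WRKY transcription factors carry the signal onward.

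The material was whole rosettes of the Shandong (SH) and Yukon (YK) accessions, 4 weeks old, well watered, kept under a photoperiod of 12 h (22 °C by day, 20 °C by night), and taken halfway through the night. Neither accession was challenged with a pathogen or carried a transgene. The labels describe SH as having less rosette dry weight, thicker leaves and less drought tolerance than YK. Each accession has 1 library of pooled plants: the collection protocol speaks of 4 biological replicates of 5 plants, another label of 1 replicate, and the table holds 1 column per accession, so the spread between plants cannot be measured and every interval below covers counting error only. Polyadenylated RNA was sequenced by pyrosequencing without keeping the strand, and reads of both accessions were aligned to the SH genome.

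Gene loci received 482275 reads in the SH library and 431705 in the YK library, on 16220 and 16245 genes and a median of 7 reads per detected gene in each. A count of 0 allows up to 3 reads, which is 6.22 RPM in SH and 6.95 RPM in YK, where RPM is reads per megaread on genes. Reads were compared as deposited, because the median-of-ratios scaling of the libraries was 1; scaling by total reads instead would add 0.16 to every log2 ratio of YK to SH. Summed over the 6 green-tissue genes that carry a name (light harvesting, photosystem and Rubisco genes), there were 1123 reads in SH and 1086 in YK. In RPM the levels were 2329 in SH and 2516 in YK, so the direction turns with the scale. No gene of the seed, root or flower marker sets was found among the 751 genes for which names were at hand.

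Reads of all 4 genes lay almost wholly in the YK library. Together they had 1 read in SH and 52 in YK, and 3 of the 4 had none in SH. In YK their counts ran from 10 to 17 reads. Per kilobase of locus, introns included, the YK levels ran from 3.003 to 5.48 reads, against a median of 2.60 over all genes, so in YK these were genes of middling abundance and in SH they were at or below the detection limit. Without their YK reads none of the 4 would have reached 10 reads, the minimum for the test used on other genes.

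**Figure D1:**
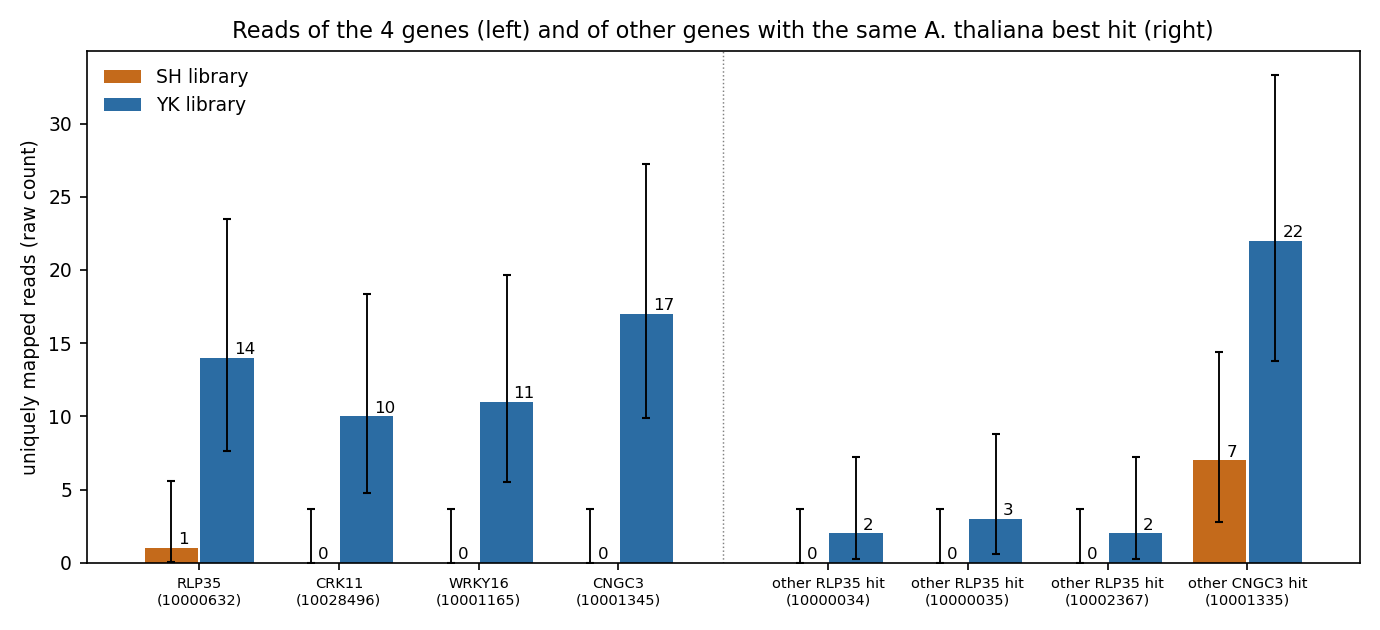
Bars give uniquely mapped reads in the SH and YK libraries, with exact Poisson intervals (95%) for counting error, for the 4 genes on the left and for other genes with the same A. thaliana best hit on the right (numbers below the names are gene identifiers). The 4 genes had 0 or 1 read in SH and 10 to 17 in YK; the other CNGC3 copy had 7 and 22.

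RLP35 belongs to the receptor-like proteins, which have extracellular leucine-rich repeats and a short cytoplasmic tail and need a partner kinase to signal. The locus spans positions 2032251 to 2034983 of scaffold 15 (JGI assembly of Phytozome v9.1), and its hit is AT3G11080. It had 1 read in SH and 14 in YK, or 2.07 RPM (interval 0.0525 to 11.6) and 32.4 RPM (interval 17.7 to 54.4). The ratio of YK to SH reads was 14, and the log2 ratio (computed on counts plus 0.5 reads) was 3.27 (interval 1.09 to 9.21). The width of that interval comes from the single SH read.

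Among the 1918 genes with hits at hand, 3 further loci shared this hit, and those 3 had reads only in YK. More copies may lie among the other genes. Thhalv10000035m.g had 3 YK reads, Thhalv10000034m.g had 2, and Thhalv10002367m.g on scaffold 35 had 2, each with none in SH. Summed over these copies, reads numbered 0 in SH and 7 in YK, with an interval of the log2 ratio that starts at 0.53 and has no upper bound. Each copy alone is at or below the floor of 3 reads and gives no fold. RLP35 itself held 66.7% of the 21 YK reads of these 4 loci, and only uniquely mapped reads were counted, so the split between similar copies is uncertain. Both copies on scaffold 15, Thhalv10000034m.g and Thhalv10000035m.g, lie with an RLP19-hit gene, Thhalv10000033m.g (none in SH and 1 in YK), in a cluster of 3 receptor-like protein loci spanning 52.8 kb on scaffold 15. The cluster begins 314287 bp from RLP35 and had 0 reads in SH and 6 in YK.

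The only gene with reads within 20 kb of RLP35 was another receptor-like protein locus, Thhalv10000044m.g. Its hit is RLP32, which in A. thaliana detects a bacterial translation initiation factor. It lies 16078 bp away and had 4 SH reads and 2 YK reads, with a log2 ratio of -0.85 (interval -4.47 to 1.80). The direction at this neighbour is thus opposite to that at RLP35, within an interval that spans 0.

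CRK11, listed also as RLK3, encodes a receptor-like kinase with cysteine-rich extracellular domains, a class whose members in A. thaliana respond to pathogens, salicylic acid and reactive oxygen. The locus lies on scaffold 3 from 4328942 to 4331639, with the hit AT4G23190. No read was found in SH and 10 in YK, the fewest of the 4 genes and equal to 23.2 RPM (interval 11.1 to 42.6). Against the floor of 3 reads this is at least 3.33-fold higher in YK, a value that leaves out the counting error of the YK reads themselves. With that error the log2 ratio is bounded below at 1.16 and has no upper bound.

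Within 20 kb of CRK11 lay 3 loci with reads, on the side of lower coordinates, with at most 3 reads each. CRK34 (Thhalv10028521m.g), of the same kinase class, had 2 SH reads and no YK read. Thhalv10028513m.g, which has no name here, also had 2 and none, and the nearest, Thhalv10028517m.g at 9947 bp, had none and 3. These counts are at or under the floor, so no direction can be read from them. The nearest genes with enough reads for the test were Thhalv10028529m.g, with 7 reads in SH and 8 in YK at 29233 bp, and Thhalv10028735m.g, with 38 and 27 at 38114 bp. Neither was called (exact binomial test, adjusted p = 1 and adjusted p = 0.59). The other named kinase of this class, CRK10 (Thhalv10000811m.g) on scaffold 20, had a single read, in YK.

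WRKY16, also named TTR1, is the intracellular member. In A. thaliana its product is an NLR receptor that carries a WRKY DNA-binding domain at its end, where it can act as a decoy for effectors that target WRKY factors, and it works as a pair with a neighbouring NLR receptor. The locus lies on scaffold 20 from 996701 to 1000363 and its hit is AT5G45050. It had no reads in SH and 11 in YK, which is 25.5 RPM in YK (interval 12.7 to 45.6). Against the floor this is at least 3.67-fold higher in YK with the counting error of the YK reads left out; with it, the log2 ratio is bounded below at 1.33 and has no upper bound. Per kilobase its YK level, 3.003 reads, was the lowest of the 4.

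Both nearest genes of WRKY16 are NLR loci too. The RPS4-hit gene Thhalv10000750m.g, whose A. thaliana counterpart encodes an NLR receptor that forms a head-to-head pair with a WRKY-bearing one, lies 5371 bp to one side. Thhalv10000770m.g, with the hit AT5G38350, begins 153 bp to the other. The 2 neighbours had the same counts, 9 reads in SH and 4 in YK, and so more reads in SH, where WRKY16 had none. For each the log2 ratio was -1.08 (interval -3.32 to 0.67), and the exact binomial test did not separate the libraries (adjusted p = 0.65). The library kept no strand, so transcripts running from 1 of these close loci into the next cannot be told apart. Further along, Thhalv10000837m.g had a single SH read. Another NLR locus of the same scaffold, Thhalv10000747m.g at 37876 bp, had none in SH and 3 in YK, at the floor.

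CNGC3 encodes a plasma membrane cation channel with a cyclic nucleotide and calmodulin-binding region; relatives of it in A. thaliana are known for altered defence and cell death when mutated. The locus lies on scaffold 22 from 1217304 to 1220405, with the hit AT2G46430. It had no reads in SH and 17 in YK, the most of the 4 genes, or 39.4 RPM in YK (interval 22.9 to 63.0). Against the floor, and again without the counting error of the YK reads, this is at least 5.67-fold higher in YK. With that error the lower bound of the log2 ratio is 2.04, the highest of the 4.

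A second locus with the CNGC3 hit, the only other one among the genes with hits at hand, Thhalv10001335m.g, stands 255 bp away. It had 7 reads in SH and 22 in YK, or 14.5 RPM (interval 5.84 to 29.9) and 51.0 RPM (interval 31.9 to 77.2). These intervals do not overlap, but RPM scales by total reads. The ratio and test that follow use reads as deposited unless another scaling is named. The log2 ratio of this copy was 1.58 (interval 0.37 to 3.12), but with adjustment over all 10036 tested genes it was not called (exact binomial test, adjusted p = 0.0729). Scaled by total reads it was called (log2 ratio 1.74, exact binomial test, adjusted p = 0.026), and also with totals that leave out the most abundant genes (adjusted p = 0.045); with the TMM scaling of edgeR it was not. In YK the copies had 5.48 and 6.17 reads per kb, and in SH 0 and 1.96, so reads of the pair in YK came from both loci and those in SH from the second alone. The pair summed to 7 reads in SH and 39 in YK. Reads that matched both copies equally well were not counted.

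Most genes on either side have hits that neighbour CNGC3 in A. thaliana too, such as AT2G46420 before the pair and AT2G46470 after it, and none of them was called with more reads in YK. The AT2G46420-hit gene Thhalv10001501m.g had 6 reads in each library, and OXA1L (Thhalv10001727m.g), related to a mitochondrial membrane insertase, had 6 in SH and 10 in YK (exact binomial test, adjusted p = 0.832). SDH4 (Thhalv10001774m.g), a membrane anchor subunit of succinate dehydrogenase 14210 bp away, had 115 SH and 30 YK reads (log2 ratio -1.92, interval -2.57 to -1.35; exact binomial test, adjusted p = 4.9e-11). It was the 1 neighbour within 20 kb that was called, and it lay on the SH side; with a coefficient of variation of 0.4 assumed in edgeR's exact test that call was lost (adjusted p = 1). PI4K GAMMA 4 (Thhalv10001379m.g), a lipid kinase relative, had 12 and 6 reads, and AIB (Thhalv10001374m.g), a transcription factor of abscisic acid and jasmonate responses, 9 and 7; neither was called. The remaining loci of this window, CPC, OXA1 and Thhalv10001500m.g, had at most 2 reads in all.

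Over the windows of 20 kb around the 4 genes, 16 neighbours had reads. More reads fell in SH for 10 of them and in YK for 5, and 1 was equal. Over all 17888 genes, 7963 had more reads in SH, 8266 more in YK and 1659 were equal. Of the 8 with at least 10 reads, 0 were called with more reads in YK and 1 with more in SH, and their median log2 ratio was -0.64, against 0 over all tested genes. At an unadjusted p under 0.05 there were 2, SDH4 and the second CNGC3-hit locus. The share of all tested genes under that cut-off was not counted, so these 2 have no background. EdgeR's exact test called 1 of the neighbours with an assumed coefficient of variation of 0.2 and 0 with 0.4. The genes within 20 kb of RLP35 and CRK11 had too few reads for any test. Within 50 kb there were 43 neighbours, 17 with more reads in YK, 24 with more in SH and 2 equal.

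**Figure D2:**
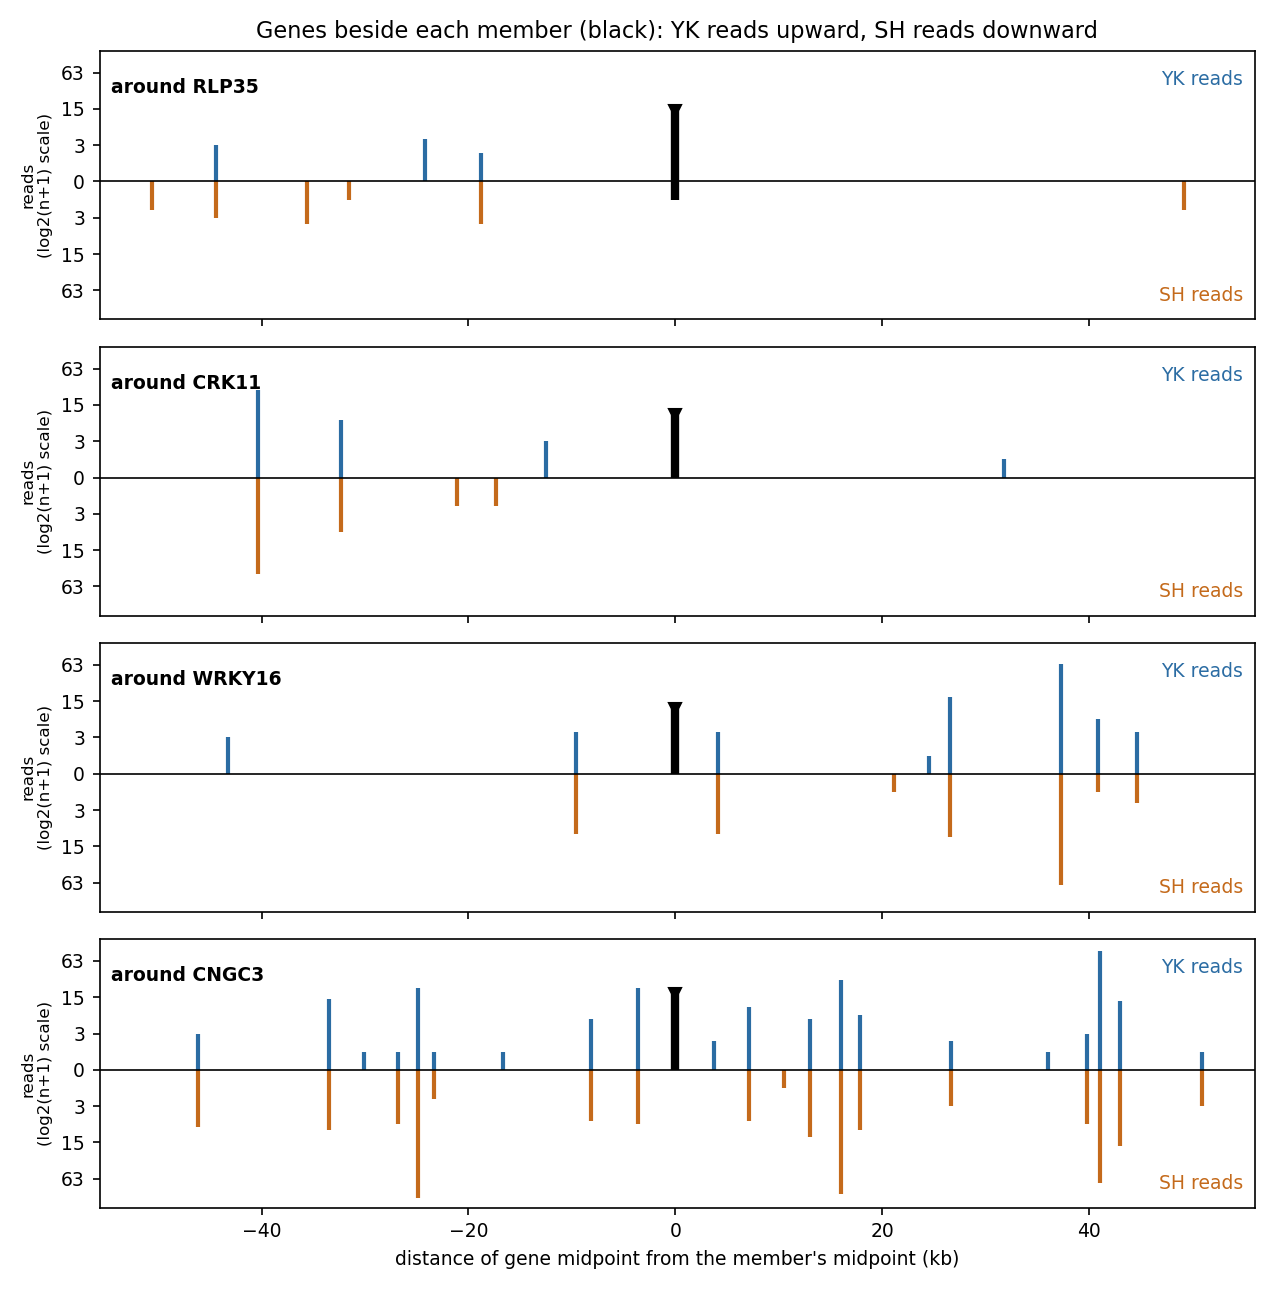
Each panel shows the reads of genes within 50 kb of 1 member, drawn by the distance between gene midpoints in kb, with YK reads upward and SH reads downward on a log2(reads + 1) axis; the member is black. Beside WRKY16 both close neighbours had 9 SH and 4 YK reads, and beside CNGC3 its other copy had 7 and 22 and SDH4, farther right, 115 and 30.

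Across the whole table the exact binomial test, adjusted over 10036 genes with at least 10 reads, called 275 genes with more reads in YK, or 2.74%, and 389 with more in SH, or 3.88%, together 6.62%. A call needed an adjusted p under 0.05 and at least a 2-fold ratio. Scaled by total reads the split was 438 and 310. The 4 genes are among the 275, which follows from how they were chosen. At their depth only nearly one-sided splits can be called: of 10 or 11 reads all had to lie in 1 library, of 15 no more than 1 could lie in the lower one, and of 17 no more than 2. Splits like those of the 4 genes, with at most 1 read in SH and 10 to 17 in YK, were found for 59 genes, or 0.588% of those tested. The mirror image, at most 1 read in YK and 10 to 17 in SH, was found for 62 genes, or 0.618%. Among the 2891 genes with 10 to 17 reads, at least 90% of the reads lay in YK for 2.32% and in SH for 2.42%. One-sided counts at this depth thus occurred about as often in either direction.

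**Figure D3:**
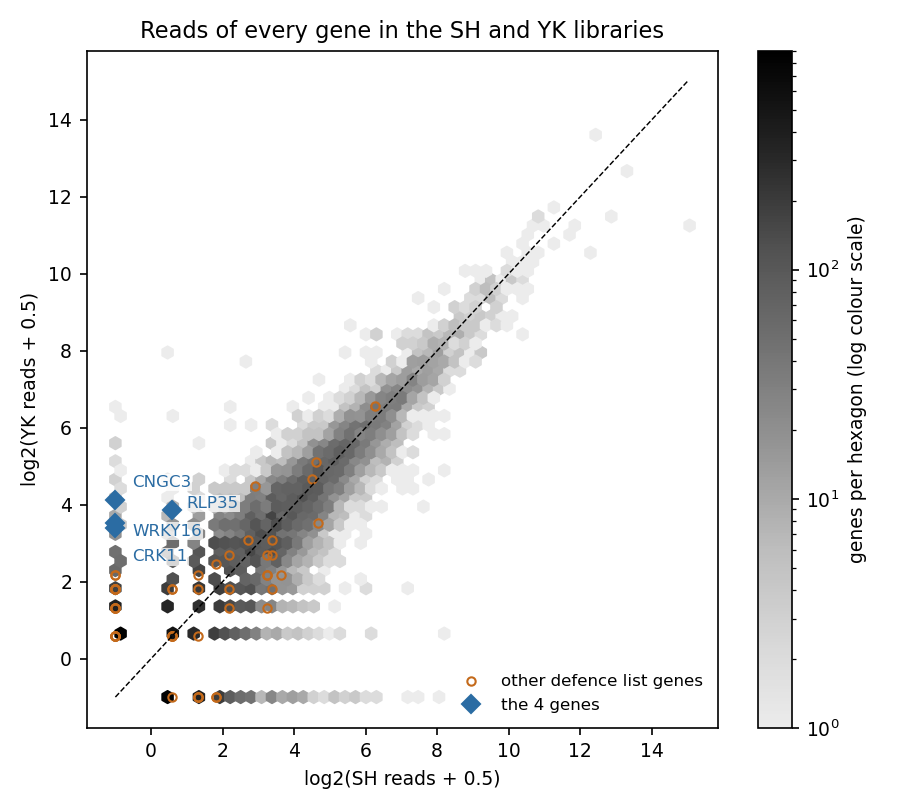
Each hexagon is shaded by the number of genes with the given reads in SH (horizontal) and YK (vertical), both as log2(reads + 0.5), with the dashed line at equal reads. The 4 genes (diamonds) lie at the left edge, at 0 or 1 SH read; other genes of the defence lists (circles) are spread on both sides of the line.

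Besides the 4 genes, 55 genes had that pattern, and 10 of these had an A. thaliana hit at hand. The named ones were TAT3 (Thhalv10000170m.g) and TSPO (Thhalv10001647m.g). TAT3, a tyrosine aminotransferase induced by jasmonate and wounding in A. thaliana, had none in SH and 12 in YK, at least 4-fold higher in YK against the floor and with a lower bound of the log2 ratio of 1.47 once the counting error of the YK reads is included. TSPO, a stress-induced membrane protein, had 1 and 12. Their distances from the mean of the 4 genes, in log2(reads + 0.5) over the 2 libraries, were 0.40 and 1.19. Likeness over 2 libraries is a weak measure, and most of the 55 have no name here.

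Other defence genes had reads in both directions. Lists of 6 classes were matched through names, at hand for 751 of the 17888 genes, or hits, at hand for 1918, so these are partial. Leaving out the 4 genes, 51 list genes had reads, of which 29 had more in YK, 18 more in SH and 4 were equal, at a median log2 ratio of 0.49. Over all 1998 genes from which the lists were drawn, 889 had more in YK, 939 more in SH and 170 were equal. Some of the list genes are named only because a supplementary table begins with genes that it flags as found in a single accession. Of the 4 genes, CRK11 carries this flag. RLP35, WRKY16 and CNGC3 do not, although WRKY16 and CNGC3 also had no reads in SH. Without the flagged genes, 37 remained, with 19 higher in YK, 14 higher in SH and 4 equal. Their median log2 ratio was 0.18, against 0 over all genes. Leaving flagged genes out of the 1998 gave 1568, with 709 higher in YK, 689 higher in SH and 170 equal. The flag leaves out other genes with reads in 1 library only, such as NPR3 (none in SH and 4 in YK) and WRKY23 (3 and none), which remain among the 37. The paper says that a minority of its genes with reads in 1 accession were so in an earlier study too, and cites its supplementary gene table for them. The flag may mark that smaller set, which was not checked. Of the 15 with at least 10 reads the exact binomial test called 0, and edgeR's exact test called 0 with either assumed coefficient of variation. At an unadjusted p under 0.05 there were 2, the second CNGC3-hit locus, counted among the neighbours too, and MPK3. Here too the share of all tested genes under that cut-off was not counted.

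Among surface receptors, the other 8 receptor-like protein loci had 4 reads in SH and 16 in YK, with more in YK at 7, but 7 of the 8 had fewer than 4 reads and none could be tested. RLP31 (Thhalv10024473m.g) had 3 reads and RLP56 (Thhalv10000563m.g) 2, all in YK. FLS2 (Thhalv10000746m.g), the receptor for bacterial flagellin, had 1 and 3. Among intracellular receptors, the other 21 NLR loci had 55 reads in SH and 56 in YK, with more in YK at 11 and more in SH at 7. Without those that the supplementary table flags as found in a single accession, 12 remained, among them Thhalv10000021m.g with reads in YK only. These 12 had 51 reads in SH and 38 in YK, with 4 higher in YK, 5 higher in SH and 3 equal. The 5 of these with at least 10 reads were not called, and 4 of them had more reads in SH, among them Thhalv10001159m.g (hit AT5G45220) with 10 and 3 reads (log2 ratio -1.58, interval -4.24 to 0.22). TAO1 (Thhalv10000759m.g), an NLR receptor of bacterial resistance, had 1 and 3.

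**Figure D4:**
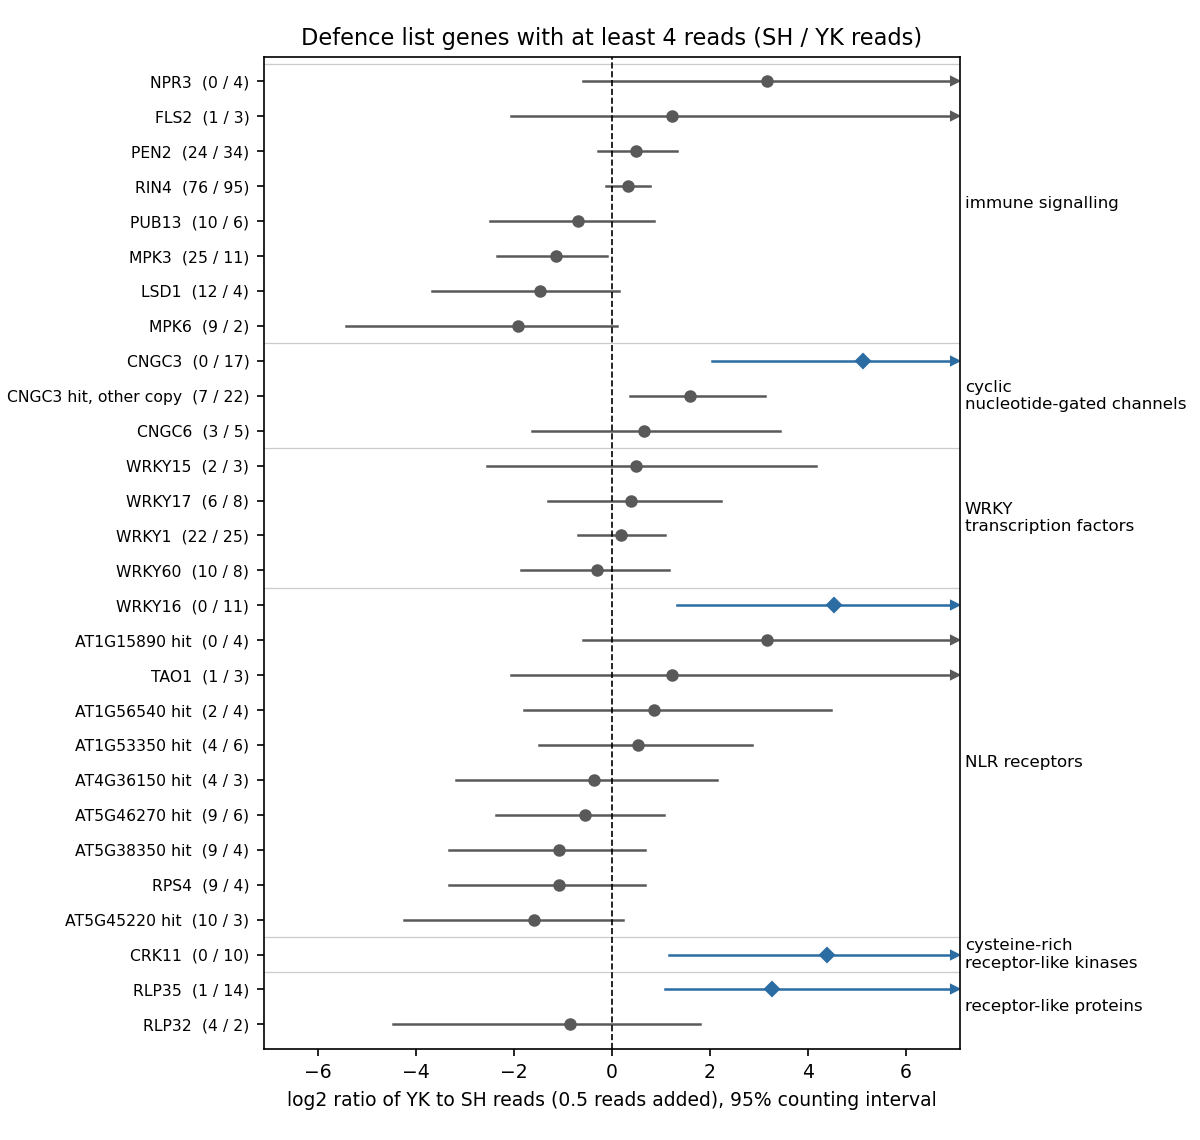
Points give the log2 ratio of YK to SH reads (0.5 reads added) of defence list genes with at least 4 reads, lines the 95% counting interval (arrowheads where it runs past the axis), and labels the SH / YK reads; WRKY16 is on 2 lists and drawn under NLR receptors. The intervals of the 4 genes (diamonds) lie above 0, as does that of the other CNGC3 copy; that of MPK3 lies below 0, and the intervals of the other genes drawn span 0.

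The other WRKY genes were near balance in sum. The 9 WRKY genes besides WRKY16 had 48 reads in SH and 47 in YK. WRKY1 (Thhalv10002517m.g) had 22 and 25 reads, and WRKY60 (Thhalv10000288m.g) and WRKY17 (Thhalv10000242m.g), regulators of salicylic acid and basal defence responses, 10 and 8 and 6 and 8; adjusted p was 1 for each in the exact binomial test. Of the 3 other channel genes, with 12 and 27 reads in all, the second CNGC3-hit locus gave most. CNGC6 (Thhalv10000059m.g) had 3 and 5 reads and CNGC11 (Thhalv10002457m.g), a close relative of CNGC3 that takes part in A. thaliana cell death responses, had 2 and none.

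The immune signalling list, which also holds FLS2, had 157 reads in SH and 159 in YK over 8 loci, 4 with more in each. The list names 53 A. thaliana genes, so most of it was not seen here. Of the mitogen-activated protein kinases, which relay signals from surface receptors, only MPK3 and MPK6 were found. Both had more reads in SH, and neither was called. MPK3 (Thhalv10002582m.g) had 25 and 11 (log2 ratio -1.15, interval -2.36 to -0.11; exact binomial test, adjusted p = 0.181). MPK6 (Thhalv10001439m.g) had 9 and 2 (log2 ratio -1.93, interval -5.42 to 0.10; exact binomial test, adjusted p = 0.301). LSD1 (Thhalv10001047m.g), a negative regulator of cell death, had 12 and 4 (adjusted p = 0.334 in that exact test). RIN4 (Thhalv10002991m.g), a target of bacterial effectors that NLR receptors guard, had 76 and 95 reads, the most of the list, at a log2 ratio of 0.32 (interval -0.13 to 0.78). PEN2 (Thhalv10001354m.g), a myrosinase of resistance to fungal entry, had 24 and 34, and the ubiquitin ligase PUB13 (Thhalv10002430m.g) 10 and 6. NPR3 (Thhalv10000824m.g), a salicylic acid receptor, had none in SH and 4 in YK. None of these was called, and NPR3 had too few reads for the test.

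Fewer cells of a type and less RNA per cell cannot be told apart in whole rosettes, and with 1 library per accession a difference between pools cannot be told apart from one between accessions.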

How the data were processed

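Reads per gene were compared in 1 SH and 1 YK rosette library. The deposited counts are raw uniquely mapped reads: after trimming with Newbler and the FASTX-Toolkit, the authors aligned reads of both accessions to the SH genome (JGI, Phytozome v9.1; GMAP in the methods, GSNAP in the submitters' processing notes), added Cufflinks loci by means of bedtools (v2.17.0), and counted reads per gene regardless of strand (HTSeq v0.5.4p5, union mode). The fold ratio and the p-value columns of the deposited table are the authors' DESeq v1.14.0 comparison and were not used. RLP35, CRK11, WRKY16 and CNGC3 are not among the differentially expressed genes that the authors list from that comparison. The 1 blank row was left out; 17888 genes remained.

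Intervals are 95% Clopper-Pearson intervals of a share, and a count of 0 was given a floor of 3 reads. Genes with at least 10 reads in both libraries together were tested by a two-sided exact binomial test against 0.5 (SciPy 1.17.1) with Benjamini-Hochberg adjustment, and called where adjusted p was under 0.05 and the log2 ratio (0.5 reads added) at least 1 in size. The code of the test was run on counts simulated with counting error alone, which is what the test itself assumes. That run cannot show how the test behaves under spread between plants or pools. The test compares 2 libraries, not accessions. A count model with replicates could not be fitted. Scalings by total reads, by TMM (edgeR v4.0.16) and by totals without the 5 most abundant genes were tried as alternatives, as were other read minimums, fold rules and windows, and the exact test of edgeR under a coefficient of variation set to 0.2 or 0.4.

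Names and A. thaliana hits came from a supplementary table, of which 1998 rows were at hand, 1918 with a hit and 751 with a name. No sequence of these genes was used here. Genes named are the 4 loci, neighbours within 20 kb, genes sharing a hit, list genes that were called, best covered or close to one of the loci, and named genes with a like pattern; others, such as genes with few reads or farther off, were chosen after their values were seen. The 4 genes, the lists and the rules were chosen with earlier results of these data known.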

Additional observations from a re-analysis of the deposited data

How the results depend on the processing

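RLP35, CRK11, WRKY16 and CNGC3 were chosen for these reads, so how often they are called is a description and supports nothing: of the genes called higher in YK, 4 were among these by the exact binomial test, 1 (CNGC3) by edgeR's exact test at a coefficient of variation of 0.2, 0 at 0.4, and 0 with a minimum of 20 reads, which none of them reaches. The other scalings shift every log2 ratio alike, by at most 0.16. Over all genes, calls numbered 664 (275 higher in YK and 389 in SH), 200 (77 and 123) at a coefficient of variation of 0.2 and 36 (11 and 25) at 0.4, 315 (131 and 184) with a log2 ratio of at least 2, and 990 (404 and 586) with no fold rule. Scaling by total reads gave 438 higher in YK. List genes besides these 4 called numbered 0, and 1 with total reads or with totals that leave out the 5 most abundant genes; called neighbours within 20 kb then numbered 2 instead of 1. In both cases the added gene is the second CNGC3-hit locus (adjusted p = 0.0729 as deposited, 0.026 and 0.045 with these scalings, by the exact binomial test). Windows of 10 kb and 50 kb held 0 and 2 called neighbours. SDH4 was not called with a log2 ratio of at least 2. Of the list genes besides the 4, 29 of 51 had more reads in YK and 18 in SH. This was 13 and 11 of 24 when at least 4 reads were required. It was 19 and 14 of 37 without genes flagged in the supplementary table as found in a single accession, an alternative added after the data were seen. Some of those 37 still had reads in 1 library only. The cause of these shifts was not tested beyond what each rule itself leaves out. No paired analysis was possible because each accession has 1 library.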

Other observations

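Farther from the 4 genes, between 20 and 50 kb, the 1 gene called was Thhalv10001740m.g (hit AT2G46390), 22917 bp from CNGC3, with 132 SH and 22 YK reads (log2 ratio -2.56, interval -3.31 to -1.93; exact binomial test, adjusted p = 3.54e-18). It lies on the opposite side of CNGC3 from SDH4, and both had more reads in SH. Between them stands the CNGC3 pair, with 7 reads in SH and 39 in YK. In the same window JAR1 (Thhalv10001373m.g), which conjugates jasmonate to isoleucine, had 9 and 14 reads and was not called. Near WRKY16, the well covered Thhalv10000914m.g (hit AT5G45280) had 69 SH and 65 YK reads at 33211 bp, at a log2 ratio of -0.09 (interval -0.60 to 0.42), a sign that turns with total reads as the scaling. These genes were chosen after their values were seen.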
